A study of Homo sapiens with 6 samples.

Results

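Potassium channel genes were examined in SUM159, a triple-negative breast cancer cell line of human origin, in 3 libraries labelled DAPK3 KO, from 1 knockout line numbered 3, and 3 labelled control, with a DAPK3 WT genotype. DAPK3, also called ZIPK, is a protein kinase that phosphorylates myosin light chain and acts in cell death and contractility. Both groups grew in the same F-12-based medium with serum, HEPES, insulin and hydrocortisone, and polyA RNA was sequenced. Separate cultures are not mentioned in any label, and p-values therefore cover only library-to-library spread, which may be technical. Members were all rows whose symbol was KCN followed by letters and a closing number, which gave 95 of the 60675 genes in the table. Of these, 21 reached a CPM (counts scaled to library size) of 1 in 2 or more of the 6 libraries, and the values that follow are mainly of those 21.

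Potassium channels let potassium leave the cell along its gradient and so set the resting membrane voltage, cell volume and, in excitable cells, the end of each action potential. Voltage-gated channels open on depolarisation, calcium- or sodium-activated channels open with rising ion levels inside the cell, inward rectifiers and two-pore-domain channels carry current near rest, and accessory subunits change the gating or trafficking of the pore-forming ones. In epithelial and tumour cells these channels are known for roles in membrane voltage, calcium entry and volume control.

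The targeted transcript did not follow the labels in both R2 libraries. DAPK3 had 13.1, 27.2 and 11.2 CPM in KO (R1, R2, R3 in turn, the order used throughout), against 26.2, 10.5 and 26.1 CPM in control. From low to high, DAPK3 RNA therefore ran control R2, KO R3, KO R1, control R3, control R1, KO R2. Genotype cannot be read from RNA level, and every library kept its labelled group. An exchange of labels between both R2 libraries was not tested, and the sign and size of each value over 6 libraries depend on those labels. Each comparison is given with all 6 libraries and without both R2 libraries. Leaving them out was decided on DAPK3 values of these same data, and p-values without them therefore carry no independent weight. Library totals ran from 16312184 to 22970823 expected counts. VIM, CD44 and EGFR, present in this line, were at 302 CPM or more in every library, while PGR had 0 counts and ESR1 was at 0.477 CPM or less. ERBB2 was at 52.2 to 59.4 CPM in the libraries labelled KO and 67.9 to 97.7 CPM in control.

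Potassium channel RNA came mostly from 4 genes, and several others were near 0 in some libraries and not in the rest. KCNMA1, KCNAB2, KCNQ5 and KCNG1 together gave 86.9%, 76.7% and 89.1% of the summed channel CPM in KO, and 72.1%, 85.6% and 75.8% in control. KCNQ3, KCNH2, KCNS3, KCNH5 and KCNIP3 were near 0 in KO R1, KO R3 and control R2 and clearly present in KO R2, control R1 and control R3. These were also the libraries with the lower and the higher DAPK3 RNA. Without both R2 libraries, 10 of the 25 channel genes tested were called (edgeR adjusted p under 0.05), 2 higher and 8 lower in the libraries labelled KO. Over all 14846 genes tested in that comparison, 27.3% were called, 12.2% higher and 15.2% lower. In bulk RNA, fewer cells with a transcript and less transcript per cell cannot be told apart.

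**Figure D1:**
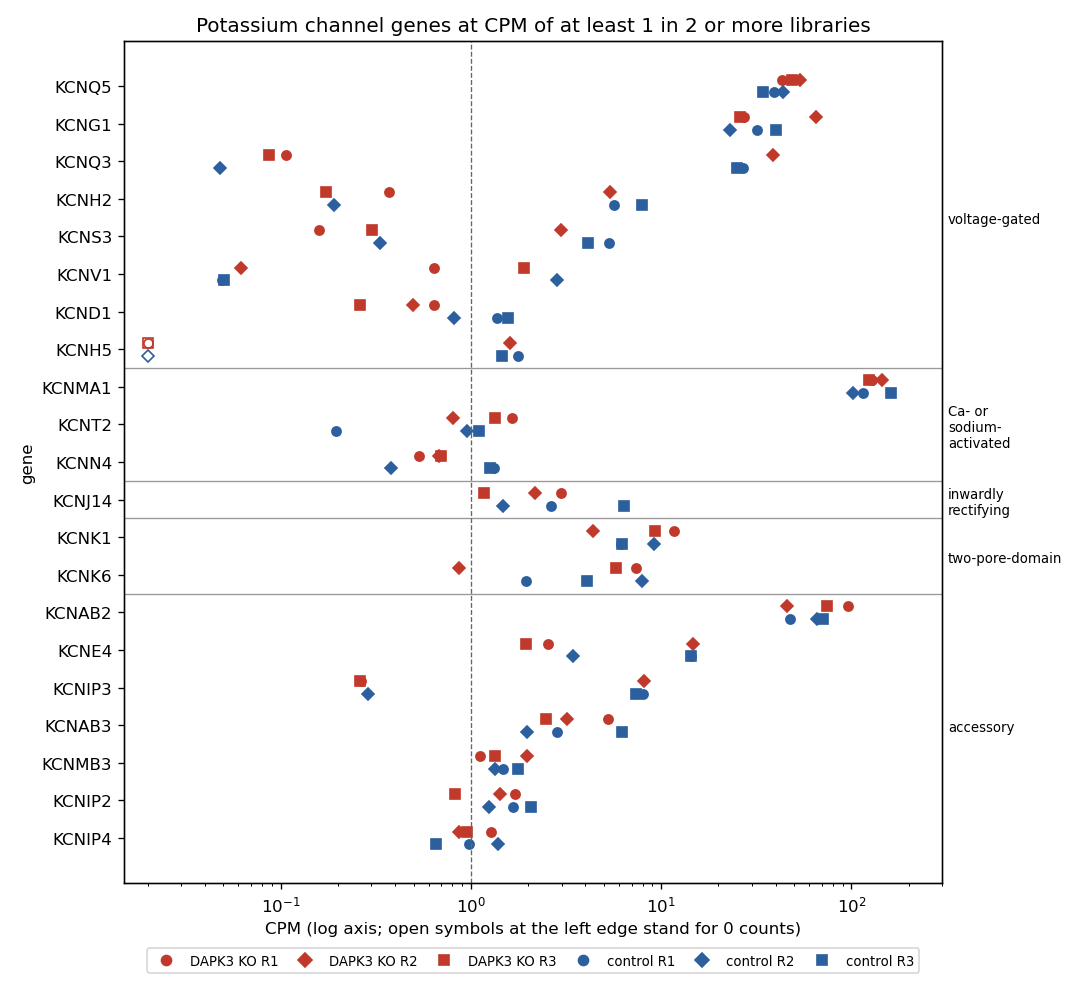
CPM of the 21 potassium channel genes in each library, on a log axis, grouped by channel class, with KO libraries drawn above control libraries and symbols giving the replicate number; open symbols stand for 0 counts and the dashed line for 1 CPM. KCNQ3 spans 0.0478 to 38.6 CPM with each R2 library on the side of the other label, while KCNMA1 stays between 101 and 162 CPM.

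The upstream sequences of genes that were low in the same libraries are shown first, with that of KCNQ5, which was expressed at a similar level throughout, set beside them. Each is the 250 bases before the transcript start listed by RefSeq on GRCh38.p14, and capitals mark GC boxes, the letters GGGCGG on either strand, which are known as sites for SP1-type factors. Where RefSeq lists several starts, the one nearest the GENCODE start of the gene is shown.
KCNH2 (chr7:150978322-150978571, minus strand): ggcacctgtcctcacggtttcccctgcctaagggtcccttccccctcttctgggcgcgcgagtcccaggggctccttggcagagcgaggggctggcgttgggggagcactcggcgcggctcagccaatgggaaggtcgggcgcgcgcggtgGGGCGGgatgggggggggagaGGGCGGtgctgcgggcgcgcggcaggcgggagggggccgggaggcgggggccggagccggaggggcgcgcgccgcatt
KCNS3 (chr2:17877597-17877846, plus strand): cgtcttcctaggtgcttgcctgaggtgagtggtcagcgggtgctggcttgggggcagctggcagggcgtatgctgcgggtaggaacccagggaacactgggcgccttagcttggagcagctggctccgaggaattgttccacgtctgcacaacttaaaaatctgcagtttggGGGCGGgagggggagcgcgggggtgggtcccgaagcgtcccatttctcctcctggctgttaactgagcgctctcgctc
KCNH5 (chr14:63045459-63045708, minus strand): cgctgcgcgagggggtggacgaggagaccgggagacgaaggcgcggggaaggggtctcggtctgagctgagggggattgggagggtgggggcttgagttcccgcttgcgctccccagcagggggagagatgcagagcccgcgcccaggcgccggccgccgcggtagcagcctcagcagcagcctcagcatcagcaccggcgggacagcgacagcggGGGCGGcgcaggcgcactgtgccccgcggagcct
KCNQ5 (chr6:72621814-72622063, plus strand): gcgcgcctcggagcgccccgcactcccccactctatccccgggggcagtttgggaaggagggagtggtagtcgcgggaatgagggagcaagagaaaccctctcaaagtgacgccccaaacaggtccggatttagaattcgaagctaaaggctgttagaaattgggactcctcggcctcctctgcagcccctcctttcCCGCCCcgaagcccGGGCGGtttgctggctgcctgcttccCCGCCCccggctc
GC boxes numbered 2 in KCNH2, 1 in KCNS3, 1 in KCNH5 and 3 in KCNQ5, and 42.6% of the 35116 promoters of this length in the table held at least 1. The CCAAT box, searched as CCAAT on both strands, occurred 1 time each in KCNH2, KCNH5 and KCNQ5 and 0 times in KCNS3, against 32.0% of all promoters with at least 1. The TATA box TATAAA had no match in these 4 windows and was held by 10.7% of all promoters. The E-box CACGTG had none either, against 6.34% of all promoters, and the AP-1 motif TGANTCA had none, against 6.57%, each searched on both strands. The GC content was 77.2%, 62.4%, 74.0% and 64.0% in KCNH2, KCNS3, KCNH5 and KCNQ5, against a median of 58.0% over the table. GC boxes were thus in the windows of KCNH2, KCNS3 and KCNH5 and also in that of KCNQ5, and they do not set these genes apart. KCNMA1, at similar levels in all libraries, had 6. The entry of KCNIP3 lies 49354 bases from its GENCODE start and held 4, and its sequence is not shown. The KCNH5 window lies 56579 bases inside the GENCODE gene start, so it is 1 of its possible promoters. The KCNQ5 window lies inside the gene too, as its RefSeq start is 272 bases past the GENCODE start. Of the 21 genes, 16 had an entry in the table, and KCNQ3, KCNE4, KCNV1, KCNG1 and KCNAB3 had none.

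By class, the voltage-gated group was the largest, with 8 of 40 members at the threshold and 15 at 0 counts in every library. Calcium- or sodium-activated channels had 3 of 8 at the threshold, inward rectifiers 1 of 16, two-pore-domain channels 2 of 15 and accessory subunits 7 of 16. Summed over all members, 51 genes had some counts but stayed under the threshold and 23 had none in any library. The last inside the threshold was KCNN4, with a second-highest value of 1.26 CPM, and just outside, by the same value, were KCNE5 at 0.860 and KCNJ12 at 0.804 CPM. KCNJ12 shares most of its sequence with KCNJ18, so its value is uncertain.

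Summed voltage-gated RNA followed the division of the libraries. It stood at 74.2, 169 and 78.3 CPM in KO, and at 114, 72.4 and 117 CPM in control. Most of the difference between the higher and the lower libraries came from KCNQ3 and KCNG1, so it does not describe the class as a whole. Two-pore-domain RNA, nearly all of it from KCNK1 and KCNK6, ran the other way. It stood at 19.2, 5.69 and 15.2 CPM in the KO libraries and 8.40, 17.3 and 10.8 CPM in control. Calcium- or sodium-activated channels summed to 131, 147 and 126 CPM in KO and 116, 103 and 165 CPM in control, with overlapping groups. Accessory subunits summed to 111, 78.6 and 84.6 CPM in KO and 79.9, 77.5 and 104 CPM in control, also overlapping.

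The order of levels between genes was taken per kb of exon, as CPM divided by the merged length of all exons of the gene in GENCODE. This length was 35.6 kb for KCNMA1 and 9.53 kb for KCNAB2, so the place of KCNMA1 depends on it. Without this division KCNMA1 had the highest mean, at 129 CPM, against 66.9 CPM for KCNAB2. The highest means over the 6 libraries were 7.01 CPM per kb for KCNAB2, 6.53 for KCNG1, 5.78 for KCNQ5 and 3.63 for KCNMA1. KCNK1 followed at 2.15, KCNE4 at 2.08 and KCNQ3 at 1.20 CPM per kb, and the lowest of the 21 was KCNH5 at 0.0653. The first 3 overlapped across libraries, so their order is not separated by this spread. KCNMA1, at 2.84 to 4.55 CPM per kb, also overlapped KCNG1, at 4.21 or more, and KCNQ5, at 4.53 or more. Variation between libraries was smallest for KCNQ5, with a coefficient of variation of 15.6%, followed by KCNMA1 at 16.8%, and was largest for KCNV1 at 127.7%.

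Among Kv7 channels, KCNQ3 switched between libraries and KCNQ5 did not. KCNQ3 (GRCh38 chromosome 8, 132120858 to 132481019, minus strand) encodes a subunit of the M-current, a slow current that damps repeated firing in neurons and that can form mixed channels with KCNQ5. It stood at 0.106, 38.6 and 0.0868 CPM in KO, against 26.9, 0.0478 and 25.1 CPM in control. These rest on 2, 624 and 2 counts in KO and 551, 1 and 498 counts in control, so the groups overlapped fully and each R2 library lay with the other label. Over 6 libraries the log2 fold change of KO over control was −0.43 (SE 2.11, edgeR adjusted p = 0.96). Without both R2 libraries KCNQ3 fell in the libraries labelled KO, with 4 counts in KO R1 and R3 together against 1049 in control R1 and R3 and a CPM ratio of 0.00367 (95% exact binomial interval 0.000999 to 0.00944, counting error only; edgeR adjusted p = 3.2e-05).

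KCNQ5 (chromosome 6, 72621792 to 73198851, plus strand), its possible partner, stood at 43.4, 53.6 and 48.6 CPM in the KO libraries and 39.0, 43.8 and 34.3 CPM in control. The groups overlapped between KO R1 and control R2, with a KO over control log2 value of 0.31 (SE 0.14, edgeR adjusted p = 0.66) with 6 libraries and 0.31 (SE 0.14, adjusted p = 0.14) without both R2 libraries. Per kb, KCNQ3 was at 0.431 of the KCNQ5 level in KO R2, 0.413 in control R1 and 0.437 in control R3. In KO R1, KO R3 and control R2 that ratio was 0.00147, 0.00107 and 0.000654. KCNQ5 was above KCNQ3 per kb in every library.

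**Figure D2:**
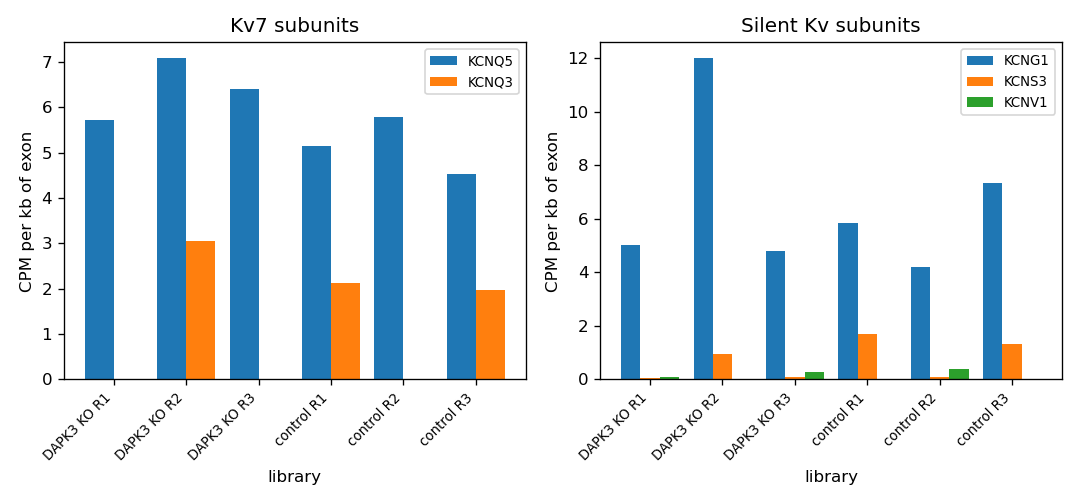
CPM per kb of exon in each library, bars starting at 0, for the Kv7 subunits KCNQ5 and KCNQ3 on the left and for the silent subunits KCNG1, KCNS3 and KCNV1 on the right. KCNQ5 is between 4.53 and 7.08 in all libraries while KCNQ3 is at 1.98 or more in KO R2, control R1 and control R3.

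EAG and ERG channels divided the libraries in the same way. KCNH2 (chromosome 7, 150944961 to 150978315, minus strand), which encodes the hERG channel that repolarises heart muscle, stood at 0.372, 5.38 and 0.174 CPM in the KO libraries and 5.67, 0.191 and 7.90 CPM in control. The 3 low libraries rest on 4 to 7 counts each and do not overlap the others. Its log2 fold change came to −1.23 (SE 1.48, edgeR adjusted p = 0.84) with 6 libraries, and without both R2 libraries it fell by 4.66 on the log2 scale (SE 0.45, adjusted p = 0.00081). KCNH5 (chromosome 14, 62699454 to 63102037, minus strand), encoding the voltage-gated channel EAG2, had 1.61 CPM in KO R2 and 0 counts in KO R1 and KO R3, against 1.76 CPM in control R1, 1.46 in control R3 and 0 counts in control R2. A count of 0 allows up to 3 counts per library, or 0.159 CPM in KO R1, 0.130 in KO R3 and 0.143 in control R2. KCNH5 was at least 11.1-fold lower in KO R1 and R3 than in control R1 and R3 against that floor (edgeR adjusted p = 0.0026). With 6 libraries its adjusted p was 0.88.

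KCND1 was the 1 tested member whose labelled groups did not overlap with all 6 libraries. KCNE2 and KCNV2, too low to be tested, did not overlap either. KCNE2 had 0.159 to 0.217 CPM in KO and 0.252 to 0.293 CPM in control. KCNV2 had 0.106 to 0.247 CPM in KO and 0 to 0.0503 CPM in control. KCND1 encodes Kv4.1, a fast-inactivating A-type channel (chromosome X, 48961378 to 48971569, minus strand). Its values were 0.638, 0.495 and 0.260 CPM in KO, against 1.37, 0.813 and 1.56 CPM in control. Every library labelled KO was below every control library, on 6 to 12 counts in KO and 17 to 31 in control. Over all genes tested, the labelled groups did not overlap in 13.8%, with KO lower in 6.86% and KO higher in 6.96%, so 1 of 23 channel genes is no more than that background. The log2 fold change came to −1.42 (SE 0.48, edgeR adjusted p = 0.63) with 6 libraries. Without both R2 libraries KCND1 fell by 1.74 on the log2 scale (SE 0.51, adjusted p = 0.043), a call that was lost when control R1 (adjusted p = 0.13), control R3 (0.16) or KO R3 (0.22) was left out, with DESeq2 and with no filter.

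Silent subunits, which do not conduct alone and change the gating of Kv2 channels in mixed assemblies, moved in both directions. KCNS3, encoding Kv9.3 (chromosome 2, 17877847 to 18361616, plus strand), stood at 0.159, 2.97 and 0.304 CPM in KO and 5.33, 0.335 and 4.13 CPM in control. It was low in KO R1, KO R3 and control R2, and fell by 4.29 on the log2 scale without both R2 libraries (SE 0.45, edgeR adjusted p = 0.0011). KCNV1, encoding Kv8.1 (chromosome 8, 109963645 to 109975847, minus strand), was the reverse, at 0.638, 0.0618 and 1.91 CPM in KO and 0.0489, 2.82 and 0.0503 CPM in control. Its 3 lowest libraries, KO R2, control R1 and control R3, had 1 count each. Without both R2 libraries KCNV1 rose in the libraries labelled KO, with 56 counts against 2 and a CPM ratio of 27.0 (95% exact binomial interval 7.13 to 228.3, counting error only; edgeR adjusted p = 0.011). Over 6 libraries the log2 fold change came to −1.53 (SE 1.27, adjusted p = 0.77) for KCNS3 and −0.14 (SE 1.54, adjusted p = 0.98) for KCNV1.

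KCNG1, encoding Kv6.1, was the most abundant silent subunit. It stood at 27.3, 65.2 and 26.1 CPM in KO and 31.8, 22.9 and 39.9 CPM in control. KO R2, control R1 and control R3 were the 3 highest libraries, and KO R1, KO R3 and control R2 did not overlap them. The log2 fold change came to 0.32 (SE 0.40, edgeR adjusted p = 0.85) with 6 libraries and −0.44 (SE 0.16, adjusted p = 0.084) without both R2 libraries, so its sign depended on those 2 libraries. Per kb, silent subunits summed to 5.33, 13.1 and 5.27 in KO and 7.62, 4.76 and 8.85 in control.

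Calcium- or sodium-activated channels had no called member in either comparison, apart from KCNT2 when a further library was left out. KCNMA1, the pore of the large-conductance calcium-activated BK channel (chromosome 10, 76869601 to 77638369, minus strand), stood at 128, 145 and 124 CPM in KO and 115, 101 and 162 CPM in control, a mean of 132 ± 11.1 CPM in KO and 126 ± 32.0 in control (SD, n = 3 libraries). The log2 fold change came to 0.07 (SE 0.19, edgeR adjusted p = 0.93) with 6 libraries and −0.15 (SE 0.18, adjusted p = 0.57) without both R2 libraries. KCNN4, the intermediate-conductance calcium-activated channel, stood at 0.531, 0.680 and 0.695 CPM in KO and 1.32, 0.382 and 1.26 CPM in control, with control R2 below each library labelled KO. KCNT2, a sodium-activated channel subunit, stood at 1.65, 0.804 and 1.35 CPM in KO and 0.195, 0.956 and 1.11 CPM in control. KO over control had a log2 value of 0.75 (SE 0.64, edgeR adjusted p = 0.77) with 6 libraries and 1.18 (SE 0.68, adjusted p = 0.24) without both R2 libraries. That last value moved to 0.42 (adjusted p = 0.67) without control R1 and to 2.88 (adjusted p = 0.036, called) without control R3.

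Channels that carry current near rest were few. KCNK1, encoding the two-pore-domain channel TWIK1 (chromosome 1, 233614004 to 233672512, plus strand), stood at 11.7, 4.39 and 9.29 CPM in KO and 6.16, 9.13 and 6.19 CPM in control. KO R1, KO R3 and control R2 were the 3 highest libraries. It rose by 0.75 on the log2 scale without both R2 libraries (SE 0.22, edgeR adjusted p = 0.044), a call that was lost without control R1, control R3 or KO R1, with DESeq2 and with no filter, and stood at 0.24 (SE 0.39, adjusted p = 0.88) with 6. KCNK6, encoding the related TWIK2, stood at 7.39, 0.866 and 5.77 CPM in KO and 1.95, 7.93 and 4.08 CPM in control. Its log2 fold change came to 0.01 (SE 0.80, edgeR adjusted p = 1.00) with 6 libraries and 1.11 (SE 0.38, adjusted p = 0.072) without both R2 libraries, where it was called higher with DESeq2 (adjusted p = 0.041) and when KO R3 (0.031) or control R3 (0.015) was also left out.

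KCNJ14, encoding the inward rectifier Kir2.4, stood at 2.98, 2.16 and 1.17 CPM in KO and 2.64, 1.48 and 6.34 CPM in control. Control R3 was more than any other library and the groups overlapped, and KO over control had a log2 value of −0.73 (SE 0.61, edgeR adjusted p = 0.77) with 6 libraries and −1.15 (SE 0.56, adjusted p = 0.17) without both R2 libraries. Without KO R1 as well, KCNJ14 was called lower, at −1.93 (edgeR adjusted p = 0.00997). KCNJ14 shares 350 exon bases with GRWD1 on the same strand, which was at 69.9 to 90.6 CPM, so its value is uncertain. KCNJ8, the pore of an ATP-sensitive channel, was under the threshold at 0, 0.247 and 0.0434 CPM in KO and 1.03, 0 and 0.554 CPM in control. It was nevertheless called lower without both R2 libraries, on 1 count in KO R1 and R3 against 32 in control R1 and R3, a CPM ratio of 0.0301 (95% exact binomial interval 0.00074 to 0.180, counting error only; edgeR adjusted p = 0.010).

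**Figure D3:**
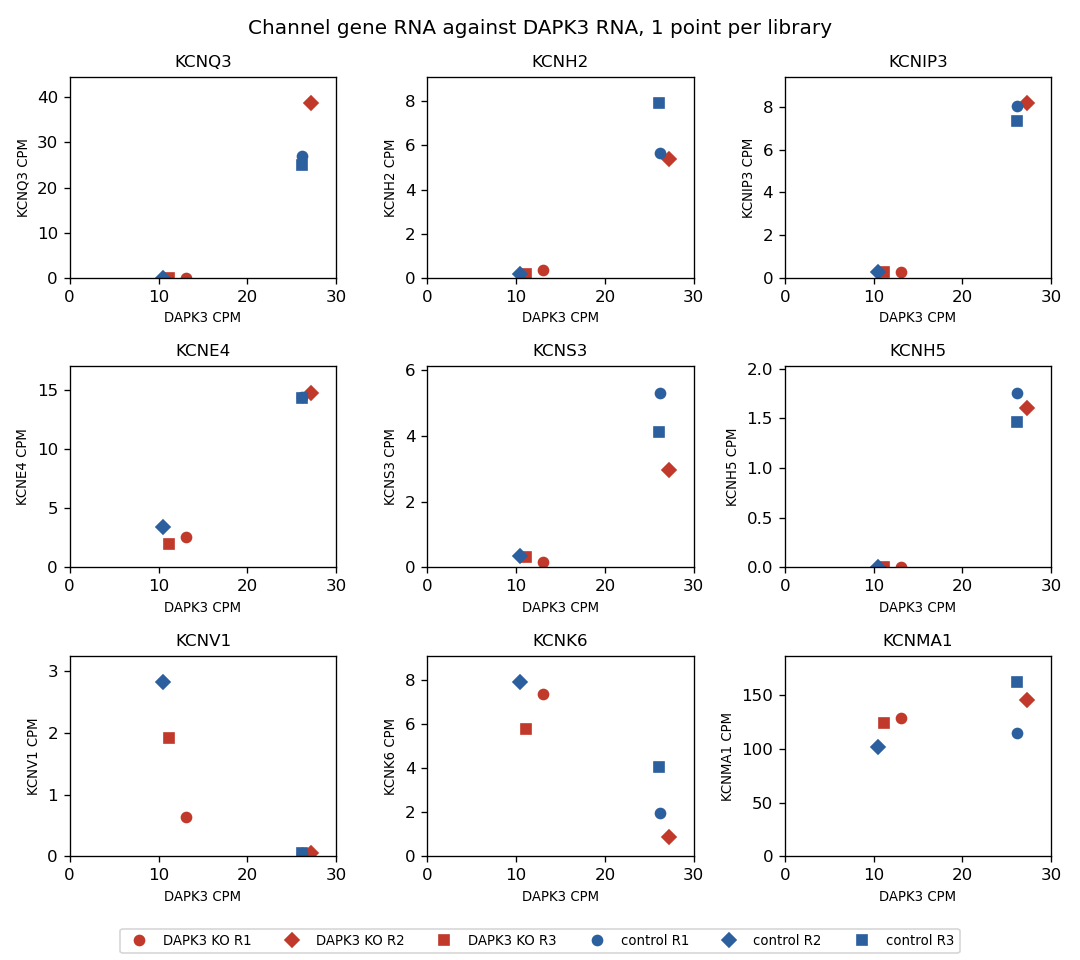
CPM of 9 channel genes against the CPM of DAPK3 in the same library, 1 point per library, both axes starting at 0. KCNQ3, KCNH2, KCNIP3, KCNE4, KCNS3 and KCNH5 are high in the 3 libraries with DAPK3 above 26 CPM, KCNV1 and KCNK6 are lower there, and KCNMA1 overlaps.

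Accessory subunits held 2 further genes that switched. KCNIP3, a calcium-binding protein that associates with Kv4 channels and is also known as the transcriptional repressor DREAM (chromosome 2, 95297304 to 95386083, plus strand), stood at 0.266, 8.16 and 0.260 CPM in KO and 8.06, 0.287 and 7.35 CPM in control. The 3 high libraries were KO R2, control R1 and control R3, on 132 to 165 counts, and the 3 low ones had 5 or 6. KCNE4 (chromosome 2, 223051814 to 223198399, plus strand) encodes a single-span subunit that inhibits KCNQ1 and some Kv1 channels. It stood at 2.55, 14.8 and 1.95 CPM in KO and 14.4, 3.44 and 14.3 CPM in control. KCNQ1 had at most 1 count in any library, and KCNA7, the only Kv1 gene with counts, was at 0.159 CPM or less. Without both R2 libraries KCNIP3 fell by 4.85 on the log2 scale (SE 0.35, edgeR adjusted p = 0.00028), and KCNE4 fell by 2.69 (SE 0.24, adjusted p = 0.00057). With 6 libraries the log2 fold changes were −0.87 (SE 1.53, adjusted p = 0.89) and −0.74 (SE 0.89, adjusted p = 0.84), and both genes overlapped between the labels.

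The other accessory genes were not called in either comparison, apart from KCNAB2 when a further library was left out. KCNAB2, encoding the Kv beta 2 subunit, stood at 96.0, 46.1 and 74.8 CPM in KO and 47.8, 65.6 and 70.9 CPM in control, with KO R2 the lowest library. Its log2 fold change came to 0.23 (SE 0.29, edgeR adjusted p = 0.84) with 6 libraries and 0.51 (SE 0.21, adjusted p = 0.12) without both R2 libraries, where it was called higher when KO R3 (adjusted p = 0.018) or control R3 (0.024) was also left out. KCNAB3, encoding Kv beta 3, stood at 5.26, 3.22 and 2.47 CPM in KO and 2.83, 1.96 and 6.19 CPM in control. The Kv4 partners KCNIP2 and KCNIP4 stood at 1.70, 1.42 and 0.825 and at 1.28, 0.866 and 0.955 CPM in KO, against 1.66, 1.24 and 2.06 and 0.977, 1.39 and 0.654 CPM in control. For both, the groups overlapped. KCNMB3, a BK beta subunit, stood at 1.12, 1.98 and 1.35 CPM in KO and 1.47, 1.34 and 1.76 CPM in control. It shares 3403 exon bases with PIK3CA on the opposite strand, which was at 44.8 to 65.9 CPM. On the same strand it shares 864 exon bases with the pseudogene LRRFIP1P1, at 0.908 to 2.60 CPM, so the value of KCNMB3 is uncertain. In all, 9 of the 21 genes share exon bases with a gene on the opposite strand, and the strand setting of the counting is not known here.

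In the comparison of the labels with 6 libraries, edgeR called 0 of the 23 channel genes tested and 0 of 14613 genes, a background of 0%. Without adjustment, 1 channel gene, KCND1, and 1119 genes in all had p under 0.05. DESeq2 called 0 channel genes and 124 of the 14613 genes (0.849%), a share that includes genes without an adjusted p. It gave no adjusted p for most of the 21 channel genes, among them KCNQ3, KCNH2, KCNS3, KCNH5, KCNV1 and KCNIP3. With limma-voom, 0 of both were called. The median log2 fold change came to −0.14 over the channel genes tested and −0.00034 over all genes, and without both R2 libraries −0.59 and −0.02. Of the 10 calls without both R2 libraries, KCNQ3, KCNH2, KCNS3, KCNH5, KCNV1, KCNIP3 and KCNE4 were called under every alternative fitted for them, KCNJ8 under the 8 that tested it, and KCND1 and KCNK1 under 5 of 10 each. Without control R1 as well, 7 were called. Genes that passed the threshold only through their high libraries had to differ between libraries, so these counts describe the genes and are no support for a difference of the class.

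**Figure D4:**
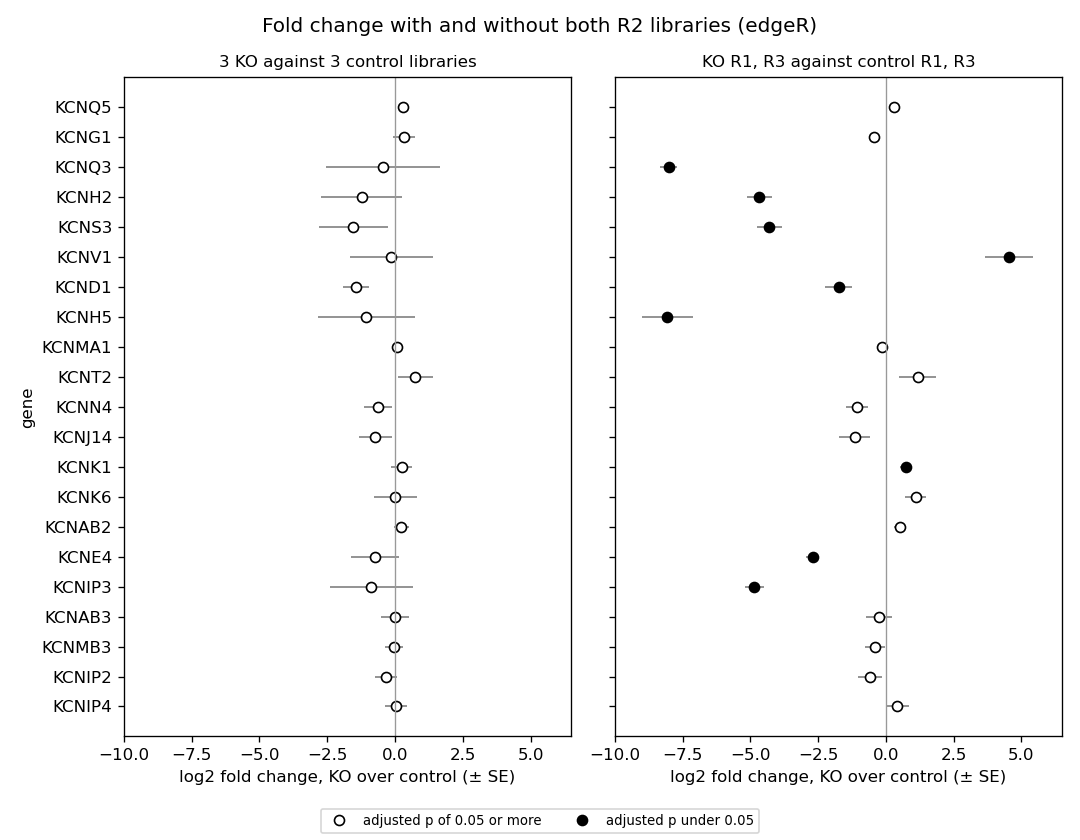
Log2 fold change of KO over control with its SE for the 21 genes, on the left from all 6 libraries and on the right without both R2 libraries; filled points have an edgeR adjusted p under 0.05. No point is filled on the left and 9 are on the right, 2 above 0 and 7 below, where the fitted value of KCNH5 rests on 0 counts in KO and that of KCNQ3 on 4.

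The left-out libraries lay with the other label for most of the genes called. On the log2(CPM + 1) scale, KO R2 was nearer to control R1 and R3, and control R2 nearer to KO R1 and R3, for 8 of the 10 genes called. Among all 4056 genes called, 67.9% showed this. The 2 channel genes that did not were KCND1 and KCNJ8, in which control R2 lay nearer the KO pair while KO R2 also lay nearer the KO pair. Of the 21 genes at the threshold it held for 13, and among all 13810 genes at the threshold for 46.5%.

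Neural markers varied with the same libraries as KCNQ3. Summed over 8 markers, they stood at 17.8, 157 and 24.6 CPM in KO and 150, 23.6 and 124 CPM in control. MAP2 and TUBB3 made up most of this, at 7.97 to 137 and 8.90 to 47.0 CPM over the libraries, while STMN2 and NEFL had 0 counts everywhere and RBFOX3, GFAP and SYP were at most at 0.403, 0.130 and 0.782 CPM. SNAP25 stood at 0, 0.495 and 0 CPM in KO and 1.07, 0.0478 and 0.755 CPM in control. Of the 4 markers with enough counts to be tested without both R2 libraries (MAP2, TUBB3, SNAP25 and SYP), 3 were called lower. Over all genes tested in that comparison, 15.2% were called lower. Their part in the result was not tested. Blood markers summed to 14.4, 10.5 and 11.9 CPM in KO and 10.7, 11.2 and 12.7 CPM in control. Within them, PTPRC stood at 0.106, 3.28 and 0 CPM in KO and 2.98, 0.0478 and 2.92 CPM in control, as KCNQ3 did, and was called lower without both R2 libraries. CD68 ran the other way and made up most of the sum, at 13.6, 6.80 and 11.4 CPM in KO and 7.33, 10.7 and 8.51 CPM in control (log2 fold change 0.64, edgeR adjusted p = 0.0598 without both R2 libraries), while HBB did not divide the libraries and CD3E was at most at 0.0489 CPM. Muscle markers summed to 21.0, 12.4 and 26.2 CPM in KO and 12.1, 28.1 and 10.5 CPM in control, nearly all from ACTA2, a smooth muscle actin, which was called higher without both R2 libraries (log2 fold change 1.07, edgeR adjusted p = 0.0076). Endothelial markers summed to 2.18, 1.36 and 0.912 CPM in KO and 2.79, 2.34 and 3.07 CPM in control. KDR, at 0.372, 0.495 and 0.477 CPM in KO and 1.17, 0.574 and 1.51 CPM in control, was called lower without both R2 libraries (log2 fold change −1.65, edgeR adjusted p = 0.033). CDH5, MYH6 and MYH7 had 0 counts in every library. The part of these markers in the channel results was not tested either.

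Other ion transport lists gave the setting of the channel genes. Over all 14846 genes tested without both R2 libraries, 12.2% were called higher and 15.2% lower, the shares to set beside each list. Among partners of potassium channels without a KCN symbol, 5 of 15 tested were called higher and 6 lower in that comparison. NEDD4L, a ubiquitin ligase known to lower surface levels of several channels, stood at 76.3, 58.7 and 79.7 CPM in KO and 37.1, 67.6 and 35.2 CPM in control (log2 fold change 1.10, SE 0.12, edgeR adjusted p = 0.0014 without both R2 libraries). ABCC9, which pairs with KCNJ8 in ATP-sensitive channels, stood at 8.29, 16.4 and 5.82 CPM in KO and 14.6, 6.5 and 11.8 CPM in control. The calmodulin gene CALM2, whose protein is the calcium sensor of KCNN4 and Kv7 channels, stood at 277, 475 and 255 CPM in KO and 482, 245 and 481 CPM in control. NEDD4L rose and ABCC9 and CALM2 fell without both R2 libraries. Both R2 libraries lay with the other label for ABCC9 and CALM2, while for NEDD4L control R2 did and KO R2 was nearer to KO R1 and R3.

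Sodium pump and potassium cotransport genes had 1 of 12 higher and 3 lower without both R2 libraries. SLC12A7, a potassium chloride cotransporter, stood at 109, 70.6 and 112 CPM in KO and 52.4, 119 and 67.5 CPM in control. ATP1B1, a beta subunit of the sodium pump, stood at 7.87, 21.0 and 9.03 CPM in KO and 32.4, 10.1 and 33.4 CPM in control. SLC12A7 rose and ATP1B1 fell without both R2 libraries, with the R2 libraries again on the side of the other label.

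Voltage-gated sodium channels had 1 of 3 higher and 1 lower, and voltage-gated calcium channels 1 of 7 higher and 2 lower. SCN9A stood at 0.425, 15.8 and 1.43 CPM in KO and 11.8, 0.669 and 18.4 CPM in control. CACNB4, a calcium channel beta subunit, stood at 9.94, 1.30 and 11.5 CPM in KO and 1.03, 9.03 and 1.11 CPM in control. The first was called lower and the second higher without both R2 libraries. Calcium entry and store release genes had 5 of 26 higher, among them TRPV4, and 8 lower, among them TRPC4. TRPV4 stood at 3.99, 0.433 and 4.04 CPM in KO and 0.0977, 5.11 and 0.151 CPM in control, and TRPC4 at 1.49, 22.2 and 3.65 CPM in KO and 27.1, 3.78 and 19.0 CPM in control. Chloride and volume-regulated anion channels had 3 of 19 higher and 4 lower, and cyclic nucleotide-gated and organelle channels 0 of 5 higher and 1 lower, HCN4. The medians of these 7 lists without both R2 libraries ran from −0.37 to 0.09 on the log2 scale, against −0.02 for all genes. With 6 libraries none of their genes was called by edgeR.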

How the data were processed

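Expected counts per gene were measured by RNA sequencing in 3 libraries labelled DAPK3 KO and 3 labelled control. The authors deposited RSEM expected counts, per the file headers, which are not normalized and need not be whole (9.42% to 10.6% of values per library differed from a whole number by more than 1e-09). GRCh38, Bowtie2, RSEM and edgeR are named, per the submitters' processing notes. The sources used here give no versions, annotation release or strand setting. Counts were rounded and CPM computed from library totals times TMM factors (0.991 to 1.015). Groups were compared in R 4.3.3 with edgeR 4.0.16 (quasi-likelihood test) with filterByExpr, no block and Benjamini-Hochberg adjustment over all genes tested, calling adjusted p under 0.05, on 6 libraries and again without both R2 libraries. SE is the fold change divided by the root of F. The step was tested on simulated data. Exon lengths and positions were those of GENCODE 29 (GRCh38), which held each of the 95 members, and promoters from RefSeq. All genes at the threshold are named with their values, and fold changes are given for the called genes and the largest of each class. Members, gene lists and the choice to leave out both R2 libraries were made with earlier results of these data known. Alternatives were RLE or no scaling factors, no filter or a CPM filter, a replicate block, DESeq2 1.42.0, limma-voom (limma 3.58.1) and each library left out. Intervals and floors cover counting error only. Some genes are not reported here.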

Additional observations from a re-analysis of the deposited data

How the results depend on the processing

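The count of channel genes called with 6 libraries stayed at 0 under each alternative fitted with all 6 or with 1 library left out, and was 10 without both R2 libraries. With 6 libraries, DESeq2 gave no adjusted p for most of the 21 channel genes. The count over all genes was 0, but 124 with DESeq2 and 4056 without both R2 libraries, and that last count ran from 2543 (without control R1, which leaves 1 control whose spread is taken from the KO pair) to 3700 with 1 more library left out. Channel calls ran from 7 to 11 there. At a minimum of 0.5 CPM 26 genes passed in place of 21, and at a mean CPM of 1 or more 17 did. The replicate number as a block (replicate block) gave 0 calls. Deviations of same-numbered libraries from their group means had correlations of −0.86 to −0.70. In many genes both R2 libraries lay with the other label, which alone makes such correlations negative. Whether the numbers pair the samples therefore cannot be decided from them. No library correlated best with its own number. The signs of some uncalled log2 fold changes depended on the setting, and the cause was not tested. With 6 libraries KCNAB3 stood at 0.0042 with library totals, 0.11 with the block and 0.0862 with limma-voom, KCNK6 at −0.00047 with the CPM filter, −0.0602 with the block and −0.17 with limma-voom, and KCNV1 at 1.79 with the block and 1.08 with limma-voom. Without both R2 libraries KCNG1 stood at −0.44, KCNMA1 at −0.15 and KCNV1 at 4.54. With 1 library left out, values ran from −0.0318 to 0.46 for KCNAB2, −0.38 to 0.59 for KCNAB3, −0.26 to 0.53 for KCNG1, −0.20 to 0.32 for KCNIP4, −1.12 to 0.0155 for KCNJ14, −0.0683 to 0.54 for KCNK1, −0.48 to 0.62 for KCNK6, −0.0837 to 0.28 for KCNMA1, −0.31 to 0.11 for KCNMB3, −7.43 to 0.13 for KCNQ3 and −1.45 to 4.0 for KCNV1. From the 4 libraries, they ran from −0.86 to 0.42 for KCNAB3 and −0.37 to 0.12 for KCNMA1. For genes at a few counts the fold change rests on single reads. Only 1 knockout line was compared.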
